A study of Rattus norvegicus with 304 samples.

Results

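Ahrr and Tiparp, the repressors by which the dioxin response limits itself, were followed in rat liver by quantitative PCR. They were taken by gene symbol from the deposited fold change tables of both PCR platforms and make up 2 of the 50 targets that have a fold change on either platform. Both are among the 49 targets of the OpenArray, a chip that runs many very small preset PCR assays, and among the 39 of the 7900HT, a conventional real-time instrument, which share 38 targets.

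The aryl hydrocarbon receptor (AHR) is a transcription factor that binds dioxins such as TCDD, pairs with ARNT and switches on genes of foreign-compound metabolism, with Cyp1a1 as the classical one. Ahrr encodes the AHR repressor, which resembles AHR, competes with it for ARNT and for the DNA element that the pair binds, and is itself induced through AHR. Tiparp encodes an enzyme that attaches ADP-ribose to proteins, AHR among them, and lowers AHR activity, and it is induced through AHR as well. Both are therefore used as readouts of receptor activity and as members of its negative feedback.

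All animals were male rats aged 10 to 12 weeks that received TCDD or corn oil by oral gavage. Long-Evans rats, which the labels call sensitive to TCDD, received 0.001, 0.01, 0.1, 1, 10, 50, 100 or 1000 µg/kg TCDD with collection at 19 h, or 100 µg/kg with collection at 3, 6, 10, 19, 96 or 240 h, and their corn oil groups were collected at 19, 96 and 240 h. Han/Wistar rats, which the labels call resistant, received 0.001, 0.01, 0.1, 1, 10, 100, 1000 or 3000 µg/kg TCDD with collection at 19 h, or 100 µg/kg with collection at 1.5, 3, 6, 10, 19, 96, 240 or 384 h, and their corn oil groups were collected at 1.5, 19, 96, 240 and 384 h. Han/Wistar rats are known, as background, to carry an altered AHR. The labels give 150 OpenArray and 154 7900HT samples in 36 groups per platform, with 3 to 7 samples per group, and 150 sample titles occur on both platforms. For each platform the authors' deposited table lists a single log2 fold change for a gene in a group, with few gaps. Its baseline is the 19 h corn oil group of that strain, in which all genes therefore stand at 0. Values of individual animals were not used. The spread among animals and the depth behind a value are thus unknown, and every test took groups as its units. Of 16 marker genes of liver cell types, 0 were on either platform, so the tissue label could not be checked, and in bulk liver fewer cells of a type and less RNA per cell cannot be told apart.

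The promoters of both genes are shown because both are known to be induced through AHR, and GCGTG, the core that AHR and ARNT bind, can be counted in them. The windows run from 250 bases before to 50 bases after the gene start in the RefSeq annotation of build GRCr8, 5′ to 3′ on the plus strand, with matches of GCGTG, or of CACGC where the match is on the other strand, in capitals.
Ahrr, chr1:30821969-30822268: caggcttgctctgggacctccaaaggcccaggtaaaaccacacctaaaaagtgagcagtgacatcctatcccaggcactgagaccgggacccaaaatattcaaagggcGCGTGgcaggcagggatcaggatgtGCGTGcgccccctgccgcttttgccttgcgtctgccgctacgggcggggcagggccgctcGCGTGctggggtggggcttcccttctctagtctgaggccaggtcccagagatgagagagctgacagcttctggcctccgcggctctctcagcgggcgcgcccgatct
Tiparp, chr2:152063519-152063818: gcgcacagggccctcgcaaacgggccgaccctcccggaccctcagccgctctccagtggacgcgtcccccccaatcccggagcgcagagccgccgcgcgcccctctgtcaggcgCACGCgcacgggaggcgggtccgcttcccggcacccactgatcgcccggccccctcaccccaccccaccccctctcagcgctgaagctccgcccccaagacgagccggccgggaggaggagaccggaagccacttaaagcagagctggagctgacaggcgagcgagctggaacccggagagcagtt
The Ahrr window held 3 matches of GCGTG, beginning at positions -142, -117 and -57 relative to the start, and the Tiparp window held 1, on the other strand, at position -136. Searched on both strands, 29.7% of 33469 promoter windows of this length held at least 1 match and 3.59% held at least 3. The longer form TNGCGTG, which overlaps GCGTG, was found once in the Ahrr window and 0 times in the Tiparp window, and 4.89% of all windows held at least 1. The GC content was 63.3% in the Ahrr window and 72.7% in the Tiparp window. A match describes the letters of this window and is not evidence of binding.

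The dose arm asked from which dose the genes respond at 19 h. In Long-Evans livers both repressors rose with dose on the OpenArray, Ahrr by far more log2 units than Tiparp. In the authors' deposited table Ahrr had 0.58, 3.78, 3.65, 5.68, 7.20, 7.86 and 5.88 log2 units at 0.01, 0.1, 1, 10, 50, 100 and 1000 µg/kg, with no value listed at 0.001 µg/kg, against 0.00, 1.07 and 0.00 in corn oil at 19, 96 and 240 h. All groups from 0.1 µg/kg upwards lay above every corn oil group, and the highest value was at 100 µg/kg, not at 1000 µg/kg. The authors' deposited table gave Tiparp 0.26, 0.44, 0.30, 0.92, 1.67, 2.38, 3.11 and 2.57 log2 units from 0.001 to 1000 µg/kg, against 0.00, 0.45 and -0.01 in corn oil at the same times. The groups up to 0.1 µg/kg lay within the corn oil range, and all from 1 µg/kg upwards lay above it. Cyp1a1 passed its corn oil range from 0.1 µg/kg, as Ahrr did.

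The rise of Ahrr with log10 dose in Long-Evans had a Spearman's rho of 0.86 (n = 7 groups, two-sided exact permutation p = 0.0238, adjusted by Benjamini-Hochberg over 49 targets 0.0343) and a Pearson's r of 0.88 (exact permutation p = 0.00833, adjusted 0.0117). Leaving out the 2 groups most distant from the median dose, rho was 0.70 and r was 0.64. This call rested on single groups: leaving out the group at 0.01 or at 10 µg/kg gave a rho of 0.77, and leaving out 0.1 or 1 µg/kg gave 0.83, with adjusted exact permutation p between 0.0812 and 0.126. For Tiparp the rho was 0.95 (n = 8 groups, two-sided exact permutation p = 0.00114, adjusted 0.00684) and r was 0.92 (exact permutation p = 0.00218), with r at 0.93 without the 2 farthest groups, and the call held whichever group was left out. Among all targets of the OpenArray 53.1% were called higher with dose in Long-Evans, so a call in this direction was common on this panel. Of the called targets 26 were higher and 13 lower, a split that centring each group on its mean target turned to 10 and 19 and centring on its median target to 18 and 17, and both repressors stayed called higher under either centring.

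In Han/Wistar livers the Ahrr values did not follow the dose closely enough to pass the test, while Tiparp rose with dose. Its values in the authors' deposited table were 0.17, 0.17, 0.07, 1.07, 2.89, 3.02, 3.45 and 3.31 log2 units at 0.001, 0.01, 0.1, 1, 10, 100, 1000 and 3000 µg/kg, against -0.20, 0.00, 0.36, 0.34 and 0.17 in corn oil at 1.5, 19, 96, 240 and 384 h. The values separated into a low set up to 0.1 µg/kg, inside the corn oil range, and a high set from 10 µg/kg, with 1 µg/kg between them. The 3 highest doses differed among themselves by less than the range of the corn oil groups.

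Tiparp gave a rho of 0.88 with log10 dose in Han/Wistar (n = 8 groups, two-sided exact permutation p = 0.00724, adjusted 0.0187) and an r of 0.94 (exact permutation p = 0.000794), which was 0.95 without the 2 farthest groups. The background was 38.8% of targets called higher, with 19 higher and 10 lower, against 8 and 20 after mean centring and 14 and 17 after median centring, where Tiparp stayed called. The call was lost without the group at 1, 10 or 100 µg/kg, each time at a rho of 0.82, with adjusted exact permutation p of 0.0836, 0.0619 and 0.0539.

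For Ahrr in Han/Wistar the authors' deposited table lists -0.26, 3.31, 1.53, 2.37, 4.95, 2.59 and 3.72 log2 units at 0.001, 0.01, 1, 10, 100, 1000 and 3000 µg/kg, and none at 0.1 µg/kg. The corn oil groups had 0.00, 1.70, 2.29 and -0.26 at 19, 96, 240 and 384 h in the authors' deposited table, with no value listed at 1.5 h. The group at 0.01 µg/kg stood above the groups at 1, 10 and 1000 µg/kg, and 1 µg/kg lay inside the corn oil range. From 10 µg/kg upwards all groups lay above every corn oil group, though the group at 10 µg/kg did so by a margin far smaller than the corn oil spread. The rho was 0.64 (n = 7 groups, two-sided exact permutation p = 0.139, adjusted 0.162) and r was 0.63 (exact permutation p = 0.126), which was 0.56 without the 2 farthest groups, so a trend was not detected. Over the Long-Evans corn oil groups the SD was 0.62 for Ahrr, 0.26 for Tiparp and 0.14 for the median target. Over the Han/Wistar corn oil groups it was 1.25 for Ahrr, 0.24 for Tiparp and 0.21 for the median target.

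**Figure D1:**
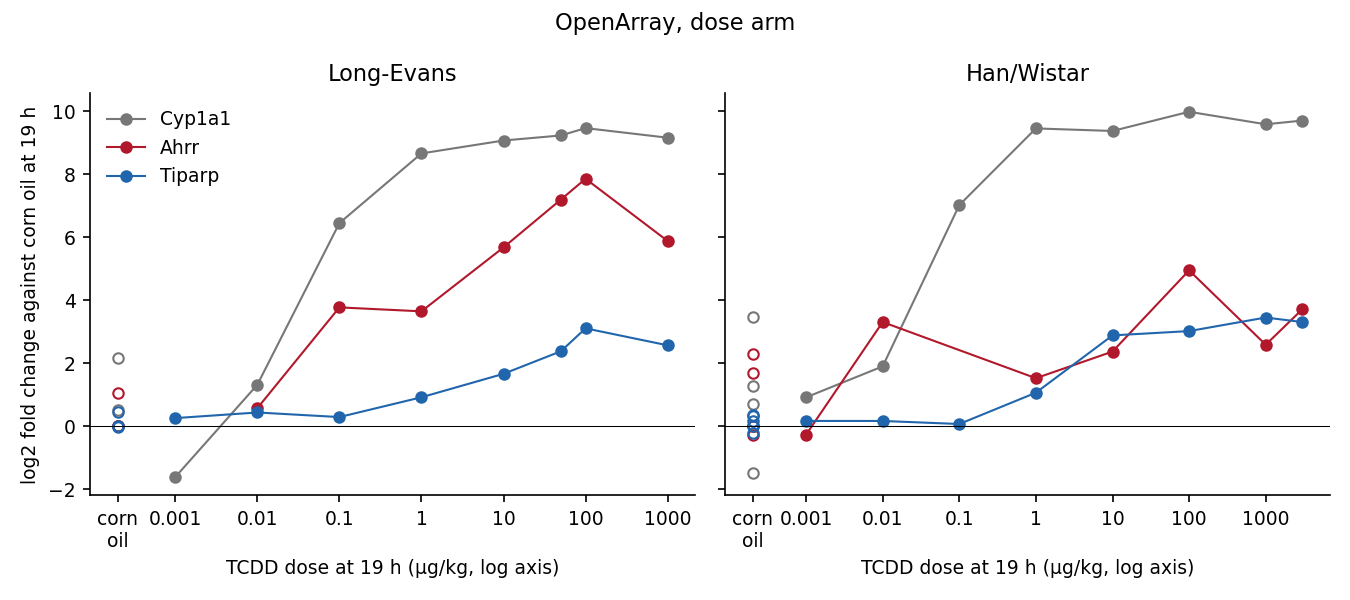
OpenArray log2 fold change at 19 h (vertical axis, the authors' deposited values, 1 per group) against TCDD dose in µg/kg (log axis), Long-Evans left and Han/Wistar right, with open circles for the corn oil groups at all their times. At 100 µg/kg Ahrr reached 7.86 in Long-Evans and 4.95 in Han/Wistar, Tiparp reached 3.11 and 3.02, and Cyp1a1 is drawn for scale. Lines join listed values and pass over the doses at which Ahrr has none.

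Put in order over all groups of a strain, most neighbouring OpenArray values lay closer than the SD over that strain's corn oil groups. For Ahrr in Long-Evans 4 of 14 gaps between neighbours were wider than that SD, the widest a gap of 3.68 between 96 h and 100 µg/kg at 19 h. For Ahrr in Han/Wistar 2 of 17 gaps were, the widest 5.00, between the same groups. For Tiparp 5 of 15 gaps in Long-Evans and 4 of 19 in Han/Wistar were wider, the widest 0.74 and 1.06, each next to the group at 1 µg/kg.

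The plot of fold change by dose shows the Ahrr line higher in Long-Evans at each dose from 1 µg/kg upwards that both strains received, while the Tiparp line was higher in Han/Wistar at 10 and 1000 µg/kg. It also shows that Cyp1a1 was near its highest value at 1 µg/kg in both strains, a dose at which Tiparp had about 1 log2 unit.

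The time arm followed a single dose of 100 µg/kg over hours and days. Both repressors on the OpenArray already stood above every listed corn oil group at the earliest time collected in each strain. Ahrr was higher again at 96 h and later. Corn oil of that earliest time is lacking for both genes in Long-Evans and for Ahrr in Han/Wistar. The earliest Ahrr value in Han/Wistar, 3.26, exceeded the highest corn oil value, 2.29, by less than the corn oil SD of 1.25. In Long-Evans, Ahrr had 7.45, 5.51, 7.08, 7.86, 11.54 and 11.69 log2 units at 3, 6, 10, 19, 96 and 240 h in the authors' deposited table. In Han/Wistar, Ahrr had 3.26, 3.71, 4.19, 3.71, 4.95, 9.95, 10.58 and 10.26 log2 units at 1.5, 3, 6, 10, 19, 96, 240 and 384 h in the authors' deposited table. In both strains every group at 96 h and later lay above every group up to 19 h, and all TCDD groups lay above all corn oil groups.

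Tiparp stayed within a narrow band over the same times. Long-Evans Tiparp had 2.50, 3.11, 3.08, 3.11, 3.52 and 3.75 log2 units from 3 to 240 h in the authors' deposited table. Han/Wistar Tiparp had 2.50, 3.37, 2.67, 2.87, 3.02, 2.13, 3.37 and 2.18 log2 units from 1.5 to 384 h in the authors' deposited table. In the authors' deposited table the lowest TCDD group of each strain stood far above the highest corn oil group, at 2.50 against 0.45 in Long-Evans and 2.13 against 0.36 in Han/Wistar.

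**Figure D2:**
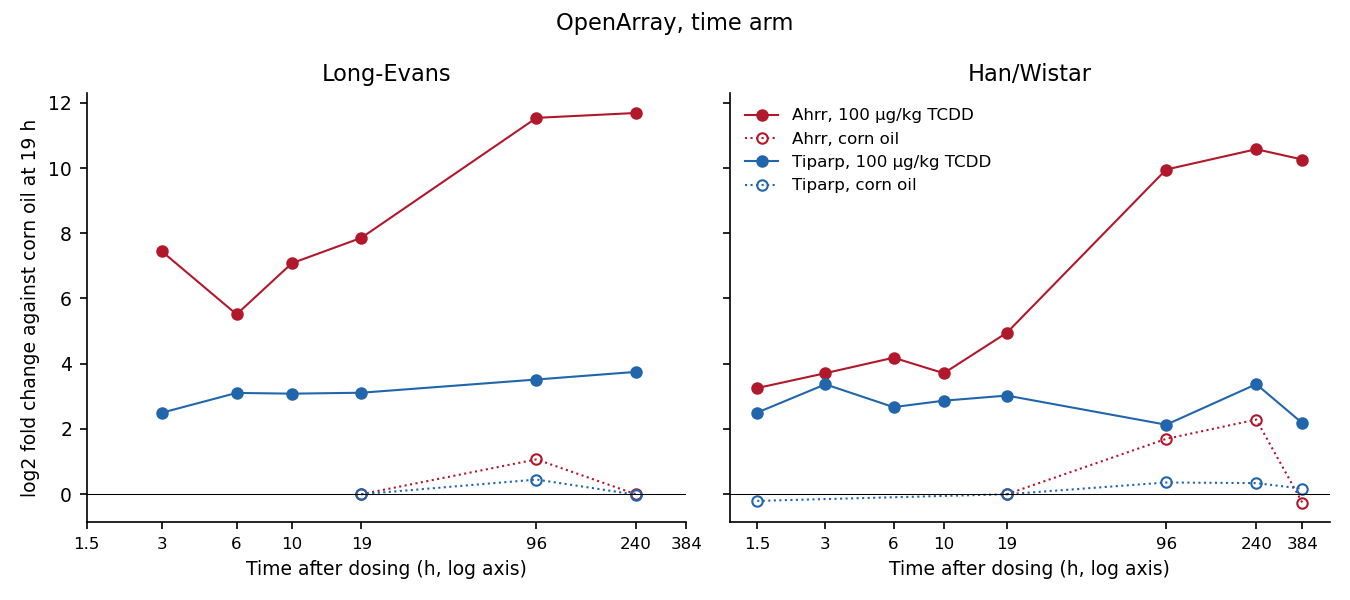
OpenArray log2 fold change (vertical axis, the authors' deposited values, 1 per group) against hours after dosing (log axis), Long-Evans left and Han/Wistar right, with filled circles for 100 µg/kg TCDD and open circles for corn oil. At 240 h Ahrr reached 11.69 in Long-Evans and 10.58 in Han/Wistar, while Tiparp stayed between 2.50 and 3.75 in Long-Evans and between 2.13 and 3.37 in Han/Wistar.

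On the OpenArray both genes in both strains passed the test of TCDD groups against corn oil groups, taken as a difference of their means. The test did not match times, so groups of different times served as units of a treatment. No corn oil group was collected at 3, 6 or 10 h. In Long-Evans, Ahrr averaged 8.52 over 6 TCDD groups and 0.36 over 3 corn oil groups, a difference of 8.16 log2 units (two-sided exact permutation p = 0.0119 over 84 splits, adjusted 0.0365). Tiparp averaged 3.18 in TCDD groups and 0.15 in corn oil groups of Long-Evans, a difference of 3.03 with the same p. This p is the smallest that the Long-Evans design allows, and leaving out any group other than TCDD at 3 or 240 h lost the call for both genes, with differences of 7.56 to 8.77 for Ahrr and 2.95 to 3.18 for Tiparp and adjusted exact permutation p of 0.0515 to 0.109. The groups whose omission lost the call were TCDD at 6, 10, 19 and 96 h and corn oil at 19, 96 and 240 h. Every fit without a group, called or not, had the smallest exact permutation p that its fewer splits allow. This was 0.0179 without a TCDD group and 0.0357 without a corn oil group. Among TCDD groups, which omission lost the call thus depended on the other targets in the adjustment. The background in Long-Evans was 30.6% of targets called higher, with 15 higher and 1 lower, against 9 and 20 after mean centring and 11 and 6 after median centring, and both repressors stayed called.

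In Han/Wistar, Ahrr averaged 6.33 over 8 TCDD groups and 0.93 over 4 corn oil groups, a difference of 5.39 log2 units (two-sided exact permutation p = 0.0141 over 495 splits, adjusted 0.0289). Tiparp averaged 2.76 in TCDD groups and 0.13 in the 5 corn oil groups, a difference of 2.63 (two-sided exact permutation p = 0.000777 over 1287 splits, adjusted 0.00952). Both calls held whichever single group was left out, and 53.1% of targets were called higher in this comparison, 26 against 1 lower. After mean centring 8 targets were called higher and 27 lower, and after median centring 16 and 12, and both repressors stayed called higher.

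Set against corn oil of the same time, the Ahrr difference was larger at 96 h and later than at 19 h in both strains, while that of Tiparp moved less and in both directions. From the authors' deposited table, Ahrr in TCDD minus corn oil was 7.86, 10.47 and 11.68 at 19, 96 and 240 h in Long-Evans, ranking 4, 1 and 3 of 49 targets. For Han/Wistar the same Ahrr difference was 4.95, 8.26, 8.29 and 10.52 at 19, 96, 240 and 384 h, taken from the authors' deposited table. Its ranks there were 5, 4 and 3 of 49 targets and, at 384 h, 4 of 48. Tiparp in TCDD minus corn oil was 3.11, 3.07 and 3.76 in Long-Evans at 19, 96 and 240 h, and in Han/Wistar it was 2.71, 3.02, 1.77, 3.03 and 2.01 at 1.5, 19, 96, 240 and 384 h, taken from the authors' deposited table. At 1.5 h Tiparp ranked 2 of 48 targets with a matched corn oil value in Han/Wistar, and Ahrr could not be ranked there because its corn oil value is not listed. At 19, 96, 240 and 384 h Tiparp ranked 8, 14, 8 and 11 in Han/Wistar.

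Averaged over 96 and 240 h, Ahrr at 100 µg/kg was 11.61 in Long-Evans, against 6.98 over 3 to 19 h, a late minus early difference of 4.64 log2 units, or 24.9-fold. The same difference in Han/Wistar was 6.13, or 69.8-fold, with 10.26 over the late and 4.14 over the early groups. Both ranked 3 of 49, behind Cyp1b1, a cytochrome P450 that AHR also induces, and Scn4b, a sodium channel subunit, while the median target differed by 0.52 in Long-Evans and 0.02 in Han/Wistar. Tiparp differed by 0.68 in Long-Evans, rank 18, and by -0.23 in Han/Wistar, rank 37. These differences were not matched to corn oil of the same time. At 96 and 240 h, Ahrr in corn oil stood at 1.07 and 0.00 in Long-Evans and at 1.70 and 2.29 in Han/Wistar. The 24.9-fold and 69.8-fold values therefore do not compare the TCDD response of the strains.

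**Figure D3:**
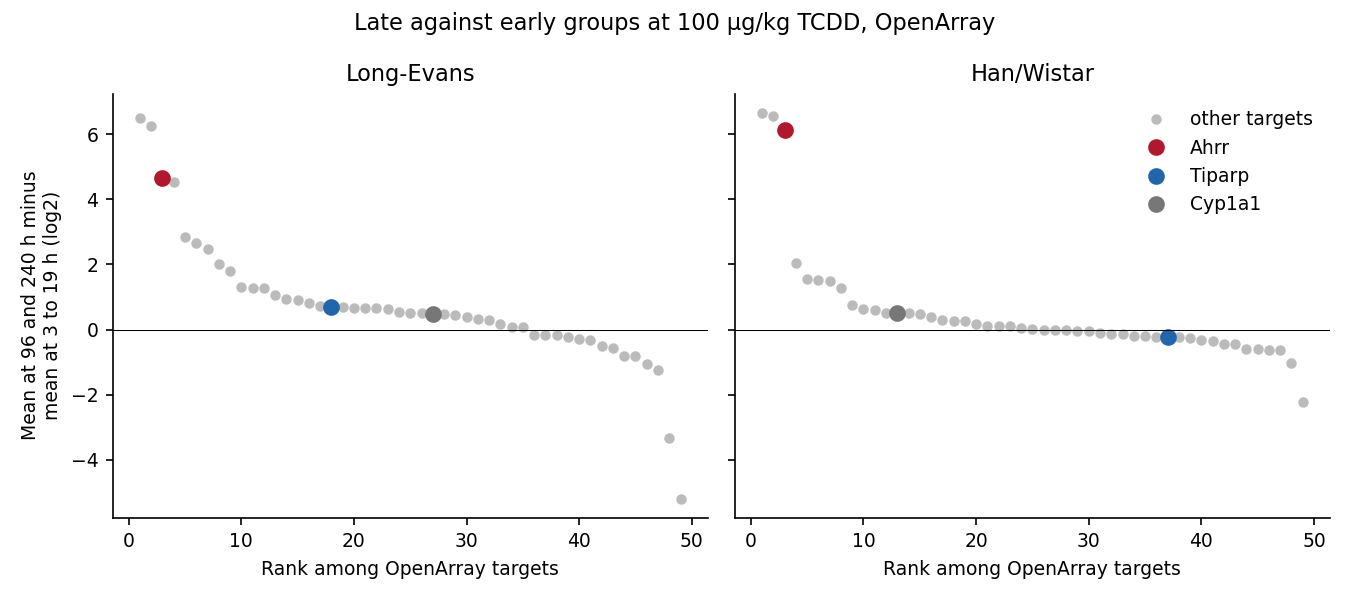
Mean log2 fold change at 96 and 240 h minus the mean at 3 to 19 h, all at 100 µg/kg TCDD, computed from the authors' deposited OpenArray values (vertical axis), against the rank of the target (horizontal axis), Long-Evans left and Han/Wistar right. Ahrr ranks 3 of 49 in both strains at 4.64 and 6.13, and Tiparp lies near the body of the targets at 0.68 and -0.23. The values are not matched to corn oil of the same time.

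A trend with log10 time over the 100 µg/kg groups was tested after these values had been seen. In Han/Wistar, Ahrr had a rho of 0.90 (n = 8 groups, two-sided exact permutation p = 0.00456, adjusted 0.0186) and an r of 0.95 (exact permutation p = 0.000298), which was 0.89 without the 2 farthest groups, and 24.5% of targets were called higher, 12 against 6 lower, or 9 against 13 after mean centring. That call was lost without the group at 1.5, 19 or 96 h, each at a rho of 0.86, or at 384 h, at 0.89, with adjusted exact permutation p of 0.0502 to 0.0897. In Long-Evans the Ahrr rho was 0.83 (n = 6 groups, two-sided exact permutation p = 0.0583, adjusted 0.0986) and r was 0.91 (exact permutation p = 0.0236, adjusted 0.0503), which did not pass. Without the 2 farthest groups the Ahrr r there was 0.31, which describes 3 to 19 h only. Tiparp in Long-Evans had a rho of 0.94 (n = 6 groups, two-sided exact permutation p = 0.0167, adjusted 0.0480) and an r of 0.94 (exact permutation p = 0.00417), against 28.6% of targets called higher. Of the called targets 14 were higher and 3 lower, which mean centring turned to 4 and 5 and median centring to 3 and 3, and median centring lowered the Tiparp rho to 0.60 (adjusted exact permutation p = 0.439). Without the 2 farthest groups the Tiparp r in Long-Evans was 0.80. For Tiparp in Han/Wistar the rho was -0.12 (n = 8 groups, two-sided exact permutation p = 0.793, adjusted 0.895) and r was -0.24 (exact permutation p = 0.552), or -0.46 without the 2 farthest groups. The Long-Evans minus Han/Wistar difference in this trend gave a rho of -0.66 for Ahrr (n = 6 times, two-sided exact permutation p = 0.175, adjusted 0.296) and 0.49 for Tiparp (exact permutation p = 0.356, adjusted 0.447), so a difference between strains was not detected. In that comparison 0% of 49 targets were called by the exact permutation test, with 6 at an unadjusted p under 0.05.

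The strains were compared directly as Long-Evans minus Han/Wistar of groups with the same dose and time. Ahrr on the OpenArray was higher in Long-Evans in 9 of 10 TCDD groups listed in both strains, with differences between -2.73 and 3.74 log2 units and a median of 2.52. Computed from the authors' deposited table, the Ahrr difference at 19 h was 3.31, 2.91 and 3.29 at 10, 100 and 1000 µg/kg, and 3.74, 1.33 and 3.37 at 3, 6 and 10 h after 100 µg/kg. In each of these 6 groups, and at 1 µg/kg, Ahrr had the highest Long-Evans minus Han/Wistar difference of the 49 targets. At 96 and 240 h the strains lay closer, 1.58 and 1.11 apart, and at 0.01 µg/kg the difference was -2.73, computed from the authors' deposited table. The corn oil groups at 96 and 240 h differed by -0.63 and -2.29, so Ahrr was higher in Han/Wistar there. The 7900HT did not show the same excess. On it Ahrr was higher in Long-Evans in 4 of 10 TCDD groups listed in both strains. The differences there lay between -11.04 and 26.54 with a median of -1.33.

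The 19 h corn oil group of a strain sets its 0, so a deviation of Ahrr in either of those groups would shift every Ahrr difference by the same amount, and this was not tested. Relative to corn oil, the Ahrr response at 100 µg/kg on the OpenArray averaged 3.31 more in Long-Evans (two-sided exact permutation p = 0.0119 over 9 matched groups, 6 of them TCDD and 3 corn oil, adjusted 0.292). That p is the smallest these 9 groups allow, and a gene alone at it could not pass the adjustment over 49 targets. The missed call is therefore no evidence that the strains respond alike. By this test 0% of 49 targets were called, with 6 at an unadjusted p under 0.05. On the 7900HT the same response averaged 9.79 more in Long-Evans (two-sided exact permutation p = 0.393, adjusted 0.589), with a difference of 26.54 at 3 h. Over dose, Ahrr was listed in both strains at 5 doses only, under the 6 needed for a test.

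On the OpenArray Tiparp differed less between the strains and in both directions. Its Long-Evans minus Han/Wistar differences over 12 matched TCDD groups lay between -1.22 and 1.39 with a median of 0.15, computed from the authors' deposited table. Han/Wistar was higher at 10 µg/kg, where Tiparp ranked 49 of 49 with -1.22, at 1000 µg/kg with -0.88 and at 3 h with -0.87, computed from the authors' deposited table. Long-Evans was higher at 96 h by 1.39. The trend of the difference with dose had a rho of -0.71 (n = 7 doses, two-sided exact permutation p = 0.0881, adjusted 0.325) and an r of -0.62 (exact permutation p = 0.151), and the time course difference was 0.36 (two-sided exact permutation p = 0.464, adjusted 0.758). Over dose 0% of 48 targets were called by this exact permutation test, with 5 at an unadjusted p under 0.05. On the 7900HT the Tiparp differences over 12 matched TCDD groups lay between -6.89 and 8.16 with a median of 1.17. Long-Evans was higher in 7 of these 12. The trend of these differences with dose had a rho of -0.11 (two-sided exact permutation p = 0.840, adjusted 0.888). The time course difference there was -1.39 (exact permutation p = 0.548, adjusted 0.689).

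Of the other AHR pathway genes, the list of receptor and partner genes had 1 of 6 members on the OpenArray, Ahr itself, which encodes the receptor, and the list of targets had 10 of 12. Members were chosen with results of these data known, so these counts are descriptions. In the dose arm of Long-Evans 6 of the 10 targets rose and 3 fell, beside 53.1% of all OpenArray targets called higher and 26.5% called lower. In Han/Wistar 5 of the 10 rose and 3 fell, beside 38.8% and 20.4%, so the shares that rose were near those of the whole panel. Those that rose in both were Aldh3a1, an aldehyde dehydrogenase, the cytochromes Cyp1a1 and Cyp1b1, Nfe2l2, a regulator of antioxidant genes, and Nqo1, a quinone reductase. Those that fell in both were Fmo1, a flavin monooxygenase, Inmt, an indolamine methyltransferase, and Ugt1a1, which conjugates bilirubin. All 8 kept these directions under mean and median centring, though Cyp1a1 in Han/Wistar and, with mean centring, Nfe2l2 in Long-Evans missed the threshold there. In the time course 5 rose and 0 fell in Long-Evans, beside 30.6% of all targets called higher. In Han/Wistar 7 rose and 1 fell, beside 53.1% called higher and 2.04% called lower. Ahr gave a dose rho of 0.76 in Long-Evans (n = 8 groups, two-sided exact permutation p adjusted 0.0462) and 0.57 in Han/Wistar (exact permutation p adjusted 0.168), but mean centring turned these to -0.76 and -0.62, so no direction is given for it. Matched to corn oil of the same time, Ahr in TCDD livers differed by 0.56 to 2.49 log2 units in Long-Evans and by -0.08 to 1.40 in Han/Wistar, taken from the authors' deposited table, well under the Ahrr differences.

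Over all OpenArray groups other than corn oil at 19 h, the targets whose values ran most like those of Ahrr in Long-Evans were Cmkor1, a chemokine receptor now named Ackr3, Eml4, a microtubule-binding protein, and Nfe2l2, with Spearman's rho of 0.94, 0.92 and 0.92 over 14 groups. In Han/Wistar they were Aldh3a1, Cyp1a1 and Ccbl1, a cysteine conjugate lyase, with 0.83, 0.82 and 0.81 over 17 groups. For Tiparp in Long-Evans they were Ube4b, a ubiquitin ligase, Ccbl1, and Uvrag, a protein of autophagy, with 0.96, 0.95 and 0.93 over 15 groups. For Tiparp in Han/Wistar they were Pmm1, a phosphomannomutase, Eml4 and Aldh3a1, with 0.82, 0.79 and 0.79 over 19 groups. Ahrr and Tiparp had a rho of 0.87 with each other in Long-Evans and 0.56 in Han/Wistar. These are descriptions, since all values of a strain share 1 corn oil group and each group shares its cDNA across targets.

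The 7900HT gave another picture for Ahrr. In Long-Evans, 10 of 12 listed TCDD groups lay below 0 and the extremes were -10.57 at 6 h and 18.13 at 3 h after 100 µg/kg in the authors' deposited table. In Han/Wistar, 13 of 14 listed TCDD groups lay below 0, with a range of -16.55 to 4.82 in the authors' deposited table. Long-Evans corn oil groups stood at 0.00, -3.81 and -0.66 at 19, 96 and 240 h in the authors' deposited table. Han/Wistar corn oil groups stood at -10.89, 0.00, 7.02 and 6.11 at 1.5, 19, 96 and 384 h in the authors' deposited table. The TCDD and corn oil groups overlapped in both strains.

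The Ahrr values on the 7900HT spanned 34.69 log2 units, the widest of its 39 targets, whose median span was 6.52, on an instrument run of 40 cycles per the labels. On the OpenArray the Ahrr span was 11.95, rank 4 of 49, and the Tiparp span 3.95, rank 14, with a median of 2.58. Of 5 unlisted OpenArray values 3 are of Ahrr, as are 3 of 6 unlisted values of the 7900HT, where they belong to 0.1 µg/kg in Long-Evans and 0.001 µg/kg and corn oil at 240 h in Han/Wistar, while Tiparp has a value in every group. Over the corn oil groups the Ahrr SD on the 7900HT was 2.04 in Long-Evans and 8.25 in Han/Wistar, against medians over targets of 0.74 and 0.97. Whether wells near the limit of detection had a part in these values was not tested.

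Tiparp on the 7900HT had 5.33, 0.37, -0.34, 0.20, 4.59, 5.55, 2.16 and 6.63 log2 units at 0.001 to 1000 µg/kg in Long-Evans, by the authors' deposited table, against 0.00, 0.17 and -1.33 in corn oil at 19, 96 and 240 h. The lowest dose was thus among the highest values. Across 3 to 240 h at 100 µg/kg, Long-Evans Tiparp on the 7900HT had 0.96, 1.56, 2.33, 2.16, 2.09 and 4.81 in the authors' deposited table, all above the corn oil groups. In Han/Wistar, Tiparp on the 7900HT had -2.83, -2.26, 2.29, -1.70, 0.40, 4.21, 0.83 and 5.31 at 0.001 to 3000 µg/kg, and 7.30, 7.85, 6.06, 0.91, 4.21, 1.17, 5.28 and -1.90 from 1.5 to 384 h, in the authors' deposited table. The Han/Wistar corn oil groups had 4.12, 0.00, -1.46, 1.91 and 1.61 at 1.5, 19, 96, 240 and 384 h on the 7900HT in the authors' deposited table and overlapped the TCDD groups.

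On the 7900HT neither gene passed the dose or time course test with the values as deposited. Against log10 dose, Ahrr had a rho of -0.93 in Long-Evans (n = 7 groups, two-sided exact permutation p = 0.00675, adjusted 0.263) and 0.25 in Han/Wistar (exact permutation p adjusted 0.725), and Tiparp had 0.48 in Long-Evans (exact permutation p adjusted 0.677) and 0.81 in Han/Wistar (exact permutation p = 0.0218, adjusted 0.136). The background was 0% of 39 targets called by the exact permutation test in Long-Evans, with 5 at an unadjusted p under 0.05, and 2.56% in Han/Wistar. In the time course Ahrr in TCDD minus corn oil was -1.20 in Long-Evans (exact permutation p adjusted 0.941) and -7.46 in Han/Wistar (exact permutation p = 0.0404, adjusted 0.0788), where 20.5% of targets were called lower. Without the Han/Wistar corn oil group at 1.5 h, the Ahrr difference was -11.27 (exact permutation p adjusted 0.0182), opposite in sign to the OpenArray. Of 12 fits that left out 1 group, only this 1 was called. The Han/Wistar Ahrr differences ran from -11.27 to -5.30 over these fits, with adjusted exact permutation p up to 0.226. Tiparp in TCDD minus corn oil was 2.70 in Long-Evans (exact permutation p = 0.0119, adjusted 0.0663) and 2.62 in Han/Wistar (exact permutation p adjusted 0.246), where the OpenArray had 3.03 and 2.63, and 0% and 15.4% of targets were called higher. The Long-Evans p is the smallest that the design allows. Cyp1a1, with a difference of 7.75 there, had the same p and adjusted p and was not called either. After centring each group on its mean or median target, the Tiparp difference in Long-Evans was 1.89 or 2.07 and passed (exact permutation p adjusted 0.0464 for both). Centring on the median of targets with the same number of rows in the raw table gave 1.13 in Long-Evans (exact permutation p adjusted 0.232) and 0.25 in Han/Wistar (exact permutation p adjusted 0.912), which did not pass. With log10 time at 100 µg/kg, Tiparp on the 7900HT had a rho of 0.77 in Long-Evans (n = 6 groups, exact permutation p = 0.103, adjusted 0.355) and -0.76 in Han/Wistar (n = 8 groups, exact permutation p = 0.0368, adjusted 0.143), and Ahrr had 0.03 and 0.60, which did not pass either (exact permutation p = 1 and 0.132).

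Group by group, the platforms did not order Ahrr alike. Over TCDD groups listed on both, the rho between platforms was -0.03 in Long-Evans (n = 11 groups, two-sided permutation p = 0.947) and 0.10 in Han/Wistar (n = 13 groups, permutation p = 0.750), and r was -0.09 and 0.05 (permutation p = 0.763 and 0.884). When the 2 groups most distant from the median OpenArray value were left out, r for Ahrr was 0.30 in Long-Evans and -0.31 in Han/Wistar. Tiparp had a rho of 0.24 in Long-Evans (n = 13 groups, two-sided permutation p = 0.437, adjusted 0.523) and 0.49 in Han/Wistar (n = 15 groups, permutation p = 0.0642, adjusted 0.144), where r was 0.62 (permutation p = 0.0152, adjusted 0.0414), or 0.66 without the 2 farthest groups. In Long-Evans the Tiparp r was 0.26 (permutation p = 0.387), or 0.34 without the 2 farthest groups. Of the 38 shared targets 15.8% passed in Long-Evans and 23.7% in Han/Wistar.

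**Figure D4:**
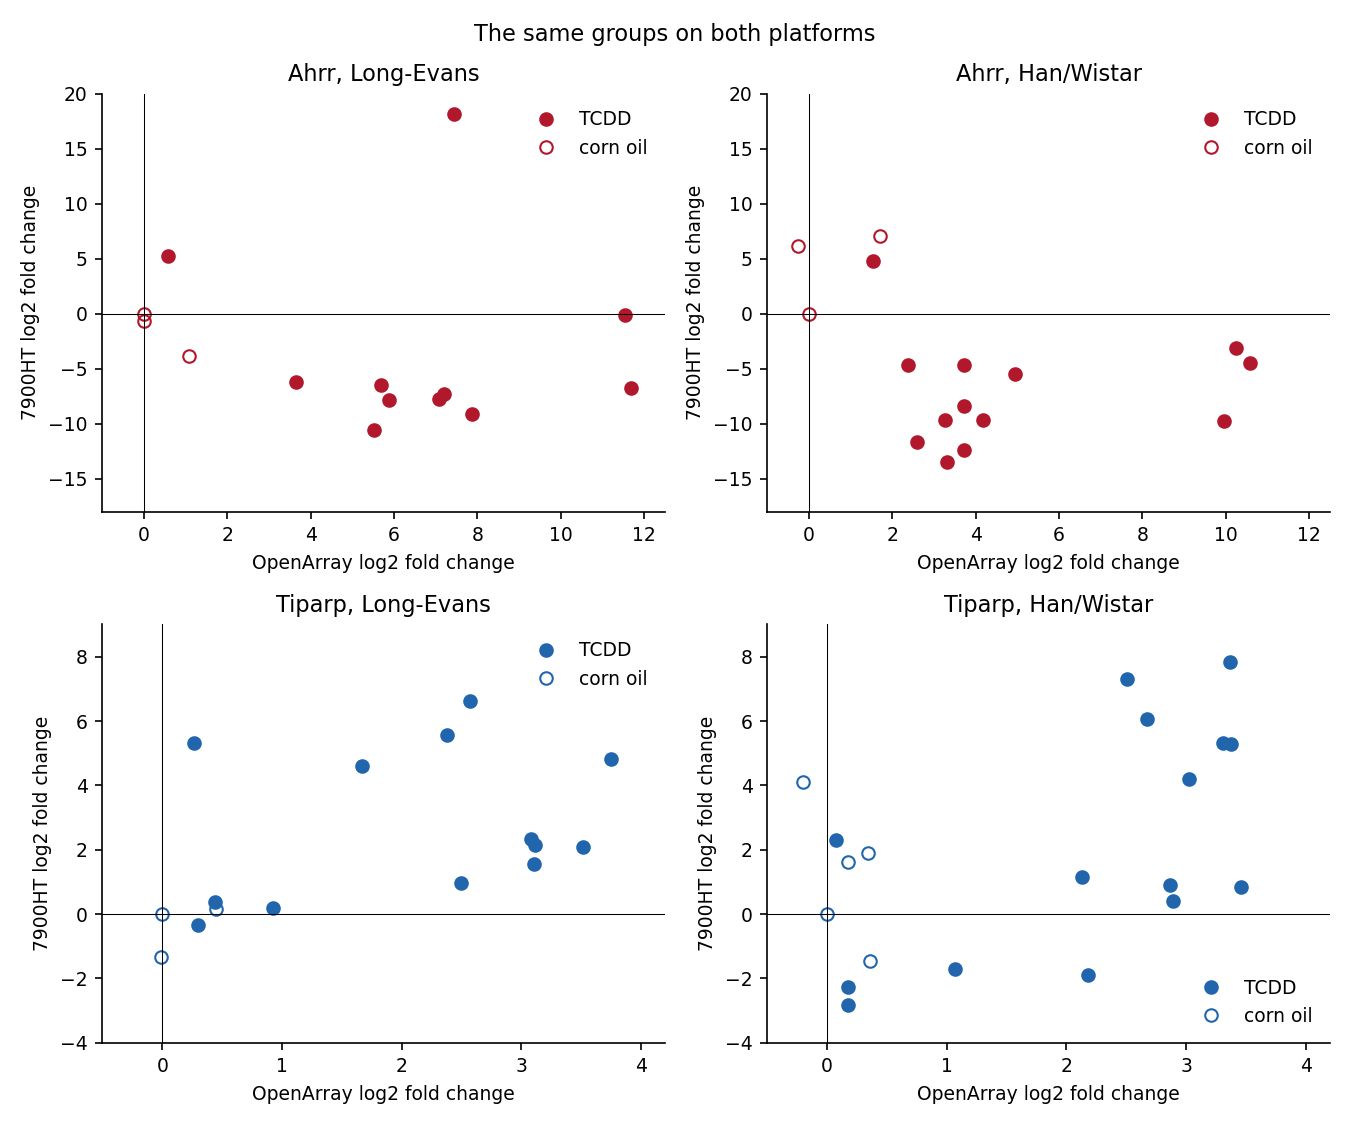
The 7900HT log2 fold change (vertical axis) against the OpenArray log2 fold change (horizontal axis) of the same group, both the authors' deposited values, for Ahrr above and Tiparp below, Long-Evans left and Han/Wistar right, with filled circles for TCDD and open circles for corn oil. Most Ahrr points lie right of 0 and below 0, higher than corn oil at 19 h on the OpenArray and lower on the 7900HT, and axis ranges differ between the genes.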

How the data were processed

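Rat liver RNA was reverse transcribed and measured by real-time PCR on the OpenArray or, with a ΔΔCT setting, on the 7900HT, per the labels' protocols. The deposited log2 fold changes give 1 value per gene, strain, time and dose, which the authors set against the 19 h corn oil group of that strain. The log base is inferred, since no header names it. Reference genes and the handling of undetected wells are not stated in the sources used here. R 2.12.2 was used by the authors per the submitters' processing notes. The 304 columns of values per animal carry codes that match no sample label and were not used, and a trailing _pr on gene symbols was removed.

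Groups were the units, so p-values measure the spread between groups. Dose and time trends used Spearman's rho over all orders of the groups, time courses the mean of TCDD minus corn oil groups over all splits, and platform agreement 100000 permutations. All tests were two-sided, and trends required 6 groups. Benjamini-Hochberg adjustment ran over all targets of a strain and platform, with a threshold of 0.05. The genes named are both repressors, Cyp1a1, an AHR pathway list, and the 3 targets most like each repressor per strain; a further part of the rule, on nearest neighbour genes that are targets, named none. Cyp1b1 and Scn4b are also named as the targets ranked above Ahrr, and Scn4b was chosen after its values were seen. The members and lists were chosen with earlier results of these data known. Alternatives were centring, Pearson's r, corn oil groups included, and leaving out single groups. Procedures were run on simulated data. These had independent noise for each target and group, without the baseline group and cDNA that the real values share. Promoters came from RefSeq (GRCr8), where both genes matched by symbol. Computation used Python 3.11.15 with scipy 1.17.1, pandas 2.3.3 and numpy 2.4.6, and figures matplotlib 3.10.9.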

Additional observations from a re-analysis of the deposited data

How the results depend on the processing

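No paired analysis was possible because each group has 1 deposited value, which also prevents leaving out single replicates; single groups were left out instead. Without 1 group, rho with dose on the OpenArray lay between 0.77 and 0.94 for Ahrr in Long-Evans (3 of 7 fits still called) and 0.82 and 0.93 for Tiparp in Han/Wistar (5 of 8). The Long-Evans time course differences lay between 7.53 and 8.77 for Ahrr and 2.92 and 3.18 for Tiparp (2 of 9 each). There every fit, called or not, had the smallest p that its fewer splits allow. The time trend in Han/Wistar lay between 0.86 and 0.96 for Ahrr (4 of 8) and -0.46 and 0.25 for Tiparp. In Long-Evans that trend had no value without a group, as 5 groups remain. On the 7900HT, Ahrr lay between -11.27 and -5.30 in the Han/Wistar time course (1 of 12 called), -5.37 and 0.37 in the Long-Evans time course, and -0.14 and 0.37 in the Han/Wistar dose trend. Centring on the median lowered the Long-Evans Tiparp time trend to 0.60, and mean or median centring put the 7900HT Tiparp time course in Long-Evans at 1.89 or 2.07, now past the threshold. Centring within targets that have the same number of rows lowered that value to 1.13 and the Han/Wistar one to 0.25, neither past the threshold, and turned the 7900HT Ahrr dose trend in Han/Wistar to -0.14, and including corn oil groups turned its platform agreement to -0.28. Pearson's r raised the Tiparp platform agreement in Han/Wistar to 0.62, past the threshold. Of the alternatives that left out no group, 64 kept direction and side of the threshold, 1 lost the call, 3 gained it and 2 reversed direction. Of the fits without 1 group, 130 kept both, 25 lost the call, 1 gained it and 6 reversed direction. Results that were uncalled and stayed so are among those kept. For the changes whose fits lack no group, the cause was not tested. The median target, by which centring shifts a group, ranged from -0.17 to 0.91 log2 units over Long-Evans and -0.35 to 0.44 over Han/Wistar groups on the OpenArray, and from -2.27 to 1.08 and -1.59 to 0.63 on the 7900HT. Depth behind each value is unknown.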
